A study of Mus musculus with 2 samples.

Results

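Glycine receptors, gephyrin and the plasma membrane glycine transporters were examined as a set of 8 genes in the newborn mouse neural tube. The members are the receptor alpha subunit genes Glra1, Glra2, Glra3 and Glra4, the beta subunit gene Glrb, the scaffold gene Gphn, and the transporter genes Slc6a5 and Slc6a9. They were chosen by gene symbol, and all 8 had a row among the 43346 gene rows of each table. Total RNA came from B6NCrl pups at postnatal day 0, 1 neural tube from each of 2 pups of 1 litter. There is 1 group with n = 2 and no treatment, mutant or other condition, sex was not collected per the labels, and p-values were therefore not computed. Pup 1 had 26916916 and pup 2 had 40003518 expected counts on gene rows, a ratio of 0.673. Levels are TPM, a length-scaled abundance that can be compared between genes, given for each pup and as the mean ± SD.

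Glycine is a fast inhibitory transmitter of the spinal cord and brainstem. It opens glycine receptors, pentameric chloride channels of alpha and beta subunits, and the beta subunit ties the channel to gephyrin, the scaffold under inhibitory synapses. In rodents the alpha2 subunit is known as the main alpha subunit of the immature cord, and alpha1 as that of the mature cord. Slc6a5 encodes GlyT2, which returns glycine to the endings of glycinergic neurons. Slc6a9 encodes GlyT1, which is known mostly from glia and also from erythroid precursors and retina. Gephyrin is also an enzyme of molybdenum cofactor synthesis in many tissues.

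The subunit genes are related in sequence, and the third coding exon shows how far they differ, since reads of similar genes can be shared. It was 68 bases long in the leading transcript of all 5 receptor genes in GENCODE M21 on GRCm38. Below, capitals mark bases that differ from Glra2, 5′ to 3′ in the sense of the gene.
Glra2, chrX:165289599-165289666, minus strand: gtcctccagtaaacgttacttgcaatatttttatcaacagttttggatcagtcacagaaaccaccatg
Glra1, chr11:55566209-55566276, minus strand: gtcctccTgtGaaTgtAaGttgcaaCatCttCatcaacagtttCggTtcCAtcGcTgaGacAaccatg
Glra3, chr8:56005117-56005184, plus strand: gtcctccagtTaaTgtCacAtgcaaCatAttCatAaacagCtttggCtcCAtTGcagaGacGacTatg
Glra4, chrX:136775486-136775553, minus strand: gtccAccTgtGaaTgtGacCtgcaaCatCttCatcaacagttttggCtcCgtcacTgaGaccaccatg
Glrb, chr3:80878009-80878076, minus strand: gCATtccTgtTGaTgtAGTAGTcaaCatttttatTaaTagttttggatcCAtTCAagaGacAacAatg
Identity with Glra2 was 76.5% for Glra1, 75% for Glra3, 80.9% for Glra4 and 64.7% for Glrb. Over whole leading transcripts, the longest run of bases shared by any pair of the 5 was 26, between Glra2 and Glra1, Glra2 and Glra3, and Glra1 and Glra4. Slc6a5 and Slc6a9 shared a run of at most 15. The deposited posterior standard deviation of the count, which grows when reads fit several genes, was 0 in both pups for all members except Glra1, at 0.25 and 0.42 counts, and Slc6a9, at 8.51 and 8.48.

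The 8 genes spanned from 0.12 to 93.95 TPM by mean. Slc6a9 and Glrb were highest, followed by Gphn, Glra2, Slc6a5, Glra1, Glra3 and Glra4. Ranges over the pups overlapped only for Slc6a9 and Glrb, whose order turned between the pups. Each other neighbour pair in this order was apart in both pups. A TPM of at least 1 in both pups was reached by 7 of the 8 members, all but Glra4, against 63.8% of 21474 protein-coding genes and 35.5% of all gene rows.

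**Figure D1:**
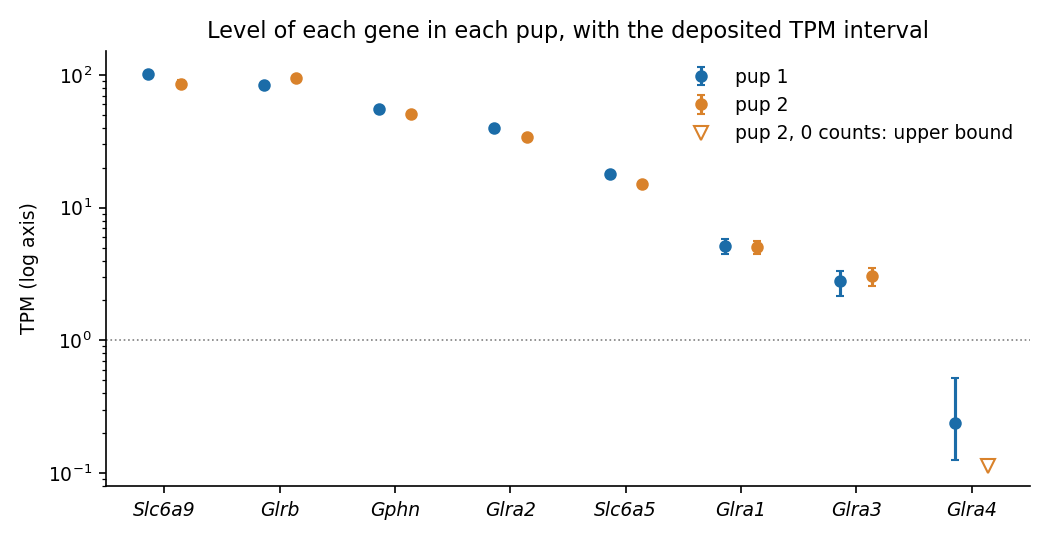
TPM of each gene (log axis) in pup 1 and pup 2, with the interval deposited beside each value; the dotted line marks a TPM of 1 and the open triangle the upper bound of Glra4 in pup 2. The genes run from Slc6a9 at 102 and 85.7 TPM to Glra4 at 0.24 and 0 TPM, and 7 of 8 lie above the line in both pups.

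Among alpha subunits, Glra2 was the most abundant in both pups. Glra2 (chromosome X, 165129017 to 165327393) stood at 39.9 TPM in pup 1 and 34.2 TPM in pup 2, 37.0 ± 4.0 (SD, n = 2), from 2099 and 2774 expected counts. Its mean lay above that of 80.4% of protein-coding genes. Glra1, the alpha subunit of the mature cord (chromosome 11, 55514238 to 55608198), had 5.18 and 5.08 TPM from 204 and 305 counts. Glra3, whose subunit is known from the superficial dorsal horn (chromosome 8, 55940460 to 56130070), had 2.82 and 3.07 TPM from 94 and 152 counts. Both were several times below Glra2 in each pup, and the deposited intervals of Glra1, 4.44 to 5.84 and 4.47 to 5.60 TPM, lay above those of Glra3, 2.18 to 3.33 and 2.56 to 3.53 TPM.

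Glra4 (chromosome X, 136757674 to 136780141) was at the edge of detection. It had 7 counts in pup 1, 0.24 TPM with a deposited interval of 0.125 to 0.524, and 0 counts in pup 2, where the upper bound was 0.112 TPM. A count of 0 allows up to 3 counts, or 0.075 CPM (the count scaled to library size) in pup 2, so a low level there was not detectable at this depth. Glra4 lies inside the span of BC065397 on the other strand, which had 80.7 and 75.5 counts. The deposited posterior standard deviation of the Glra4 count was 0 in both pups, so its counted reads were not divided with another gene. No strand setting is given in the sources used here, so the strand from which the 7 counts of pup 1 came cannot be told.

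Glra2 held 82.9% of summed alpha subunit TPM in pup 1 and 80.8% in pup 2, 81.8% ± 1.49 (SD, n = 2). Glra1 held 11.4% ± 0.866, Glra3 6.55% ± 0.980 and Glra4 0.249% ± 0.353. By expected counts, which are not divided by length, Glra2 held 87.3% of 2404 alpha counts in pup 1, with an exact Clopper-Pearson 95% interval of 85.9% to 88.6%. In pup 2 it held 85.9% of 3231, with an interval of 84.6% to 87.0%. The intervals cover counting error only. The mix was thus within a few percentage points in both pups, and Glra2 was the main alpha subunit mRNA in either unit.

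The ratio of Glra2 to Glra1 was 7.70 in pup 1 and 6.74 in pup 2 by TPM, and 10.3 and 9.10 by count. Glra2 to Glra3 was 14.1 and 11.1 by TPM, and 22.3 and 18.25 by count. Glra1 to Glra3 was 1.84 and 1.65 by TPM, and 2.17 and 2.01 by count. All these ratios were larger by count, since the abundance-weighted gene length in the tables was 3150 bases for Glra2 in both pups, against 2381 and 2358 for Glra1 and 2033 and 1964 for Glra3.

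One length bears on Glra3. Its coding transcript Glra3-201 was 1867 bases long in the deposited tables, whose annotation is GENCODE M4, and 6508 bases long in GENCODE M21, 4641 bases more. Reads from bases outside the annotated exons do not enter a gene's count. The values of Glra3 therefore rest on the shorter model, and its level under the longer one was not measured.

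Glrb, the beta subunit that carries the gephyrin binding site, was the most abundant subunit gene. Glrb (chromosome 3, 80843599 to 80913660) had 84.15 TPM in pup 1 and 94.5 TPM in pup 2, 89.3 ± 7.31 (SD, n = 2), from 4058 and 7054 counts. Its mean lay above that of 91.2% of protein-coding genes. Glrb exceeded the 4 alpha subunits together, at 48.1 and 42.4 TPM, by a ratio of 1.75 in pup 1 and 2.23 in pup 2. By count this ratio was 1.69 and 2.18, so it depended little on length. Against Glra2 alone, Glrb was 2.11 and 2.76 times as high by TPM.

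Gphn (chromosome 12, 78226379 to 78684772) had 55.2 TPM in pup 1 and 50.6 TPM in pup 2, 52.9 ± 3.27 (SD, n = 2), from 3041 and 4293 counts. It lay between Glrb and the alpha subunits. Glrb to Gphn was 1.52 and 1.87 by TPM and 1.33 and 1.64 by count, and Gphn to the summed alpha subunits was 1.15 and 1.19 by TPM. The scaffold mRNA was therefore within 2-fold of the beta subunit and of the summed alpha subunits in both pups.

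The transporters differed in level. Slc6a9 (chromosome 4, 117834506 to 117875198) had 102 TPM in pup 1 and 85.7 TPM in pup 2, 93.95 ± 11.6 (SD, n = 2), from 5138 and 6745 counts. Slc6a5 (chromosome 7, 49910146 to 49963856) had 17.88 and 14.99 TPM, 16.4 ± 2.04, from 2148 and 2774 counts. Slc6a9 was the higher in both pups, and the ratio of Slc6a9 to Slc6a5 was nearly the same in them, at 5.71 in pup 1 and 5.72 in pup 2 by TPM. By count it was 2.39 and 2.43. The unit matters here because the Slc6a5 transcript is 7065 bases long, the longest among the members. For the same reason Glra2 and Slc6a5 were at a ratio of 2.23 and 2.28 by TPM, but of 0.977 and 1 by count.

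In the tail of Slc6a9 the annotation holds genes on the other strand, B4galt2 with 2536 and 4093 counts and Ccdc24 with 72.4 and 60.5 counts. B4galt2 begins at 117869260, and the leading transcripts Slc6a9-202 and Slc6a9-201 end just after that, at 117869296 and 117869305. Slc6a9-207, at 1.99% and 1.98% of the gene, and Slc6a9-212, at 0.78% and 0.38%, reach further. The posterior standard deviation of the Slc6a9 count was 8.51 and 8.48 counts. With no strand setting given, reads in the overlaps cannot be assigned to 1 strand. In bulk tissue, fewer cells of a type and less RNA per cell cannot be told apart.

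**Figure D2:**
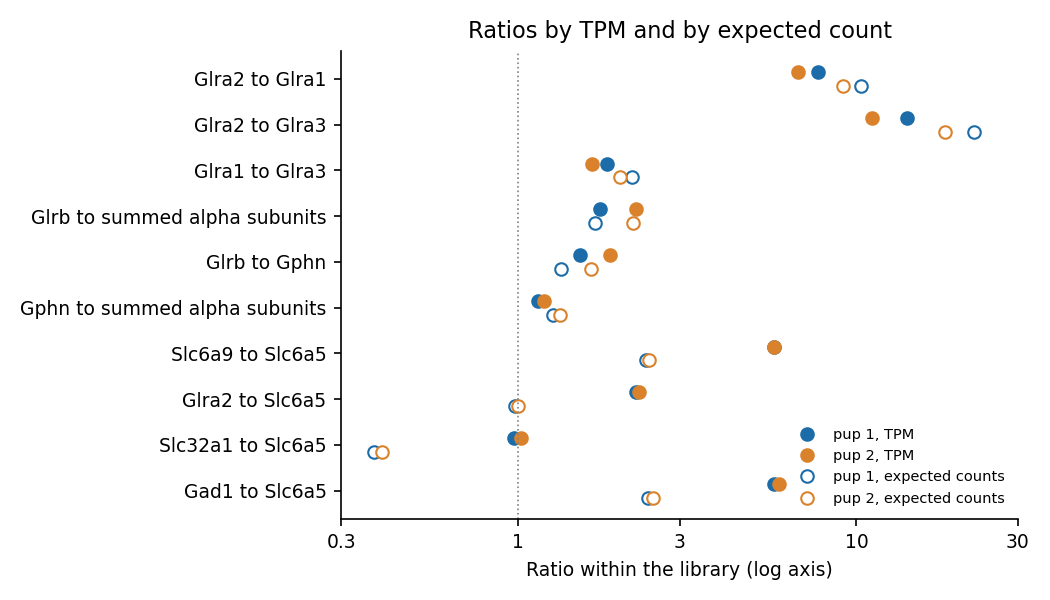
Ratios between genes within each library on a log axis, for pup 1 and pup 2, by TPM (filled) and by expected count (open); the dotted line marks a ratio of 1. Glra2 to Glra1 lies at 7.70 and 6.74 by TPM and 10.3 and 9.10 by count, and Slc6a9 to Slc6a5 at 5.71 and 5.72 by TPM and 2.39 and 2.43 by count.

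Transcript shares were read from the deposited percent column, in which the TPM of a gene is divided among its transcripts. Glra2 and Slc6a5 were each carried by 1 transcript, Glra2-201 and Slc6a5-201, at 100% in both pups. Glra2 has 1 transcript in the tables and 1 in GENCODE M21. Glra2 forms with exchanged exons, known from rodents, were therefore not separated here. Slc6a5-202, with the same coding length but a shorter 3′ end, had 0 counts in both pups.

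Gphn was divided between a pair of coding transcripts. The first, Gphn-201, held 62.9% in pup 1 and 62.8% in pup 2, from 1911 and 2693 counts. The second, Gphn-202, held 37.1% and 37.2%, from 1130 and 1600 counts. The SD of the share over the pups was 0.0919 percentage points (n = 2), which does not measure the precision of the split. In pup 1 the deposited TPM interval was 29.5 to 37.3 for Gphn-201 and 16.3 to 23.8 for Gphn-202. In M21 their coding parts differ only in cassette exons, shown here in capitals with 15 flanking bases of each mRNA in lower case, 5′ to 3′, since these are the coding bases that tell the transcripts apart.
Gphn-201, first cassette, chr12:78522898-78522954, plus strand: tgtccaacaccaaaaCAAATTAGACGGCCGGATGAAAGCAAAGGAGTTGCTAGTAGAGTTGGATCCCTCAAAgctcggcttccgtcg
Gphn-201, second cassette, chr12:78532657-78532698, plus strand: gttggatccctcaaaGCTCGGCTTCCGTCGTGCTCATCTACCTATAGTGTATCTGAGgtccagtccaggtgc
Gphn-202 cassette, chr12:78493950-78494057, plus strand: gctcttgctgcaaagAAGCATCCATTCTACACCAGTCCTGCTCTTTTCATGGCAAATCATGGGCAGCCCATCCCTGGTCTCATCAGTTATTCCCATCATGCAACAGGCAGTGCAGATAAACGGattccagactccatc
The cassettes of Gphn-201 are 57 and 42 bases long, 99 together, and that of Gphn-202 is 108, so each keeps the reading frame, with 19, 14 and 36 codons. The difference of 9 bases equals the difference in length between both transcripts in the tables. The outer ends of the transcripts also differ in M21. The tables hold no Gphn transcript with neither or with all of these cassettes, so the percentages say how reads were divided between these 2 models and not the share of each cassette in Gphn mRNA.

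Glra1 was carried by Glra1-202, at 97.5% in pup 1 and 91.1% in pup 2. Glra1-201 adds 24 coding bases at the start of the last exon, 8 codons in frame, in the loop between the membrane segments inside the cell. The insert is shown in capitals with 15 flanking bases.
Glra1-201 insert, chr11:55515104-55515127, minus strand: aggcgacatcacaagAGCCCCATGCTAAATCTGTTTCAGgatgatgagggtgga
Glra1-201 held 2.51% in pup 1, from 4.34 counts, and 8.93% in pup 2, from 23.4 counts. Its TPM was 0.13 in pup 1, with a deposited interval of 0.00503 to 0.538, and 0.45 in pup 2, with an interval of 0.174 to 0.852. These TPM intervals overlap, but they are not intervals of the share, and a difference in the share of the insert was not tested. Glra1-201 also starts at another 5′ end than Glra1-202 in the annotation.

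Glra3-201 held 90.4% of Glra3 in pup 1 and 94.4% in pup 2, and the other transcript, Glra3-202, is annotated as a processed transcript without a coding part. Glrb-201 held 88.3% and 90.9% of Glrb. Transcripts annotated for nonsense-mediated decay, the pathway that removes mRNAs with early stop codons, held 11.25% of Glrb in pup 1 and 8.61% in pup 2, at 9.46 and 8.13 TPM. Glrb-204 was among these transcripts. Its deposited TPM interval was 1.11 to 11.8 in pup 1 and 1.13 to 6.75 in pup 2, so this share is uncertain. The level of Glrb from its coding transcripts was estimated at 74.7 and 86.3 TPM, still above the summed alpha subunits in both pups.

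Slc6a9 had the most transcripts, 12. Slc6a9-202 led with 62.8% in pup 1 and 60.4% in pup 2, followed by Slc6a9-201 with 24.4% and 29.5%. Both hold the same coding part of 1899 bases in M21, and differ in their first exons and by a few bases at the 3′ end. Grouped by the annotated start, 6 transcripts that begin between 117834506 and 117835438 held 89.65% in pup 1 and 92.5% in pup 2. The 3 that begin between 117849193 and 117849370 held 7.78% and 5.5%, and include Slc6a9-209, at 99.6 and 5.92 counts. The upstream starts thus carried most Slc6a9 RNA in both pups. These are annotated starts of transcript models, and 5′ ends were not measured.

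**Figure D3:**
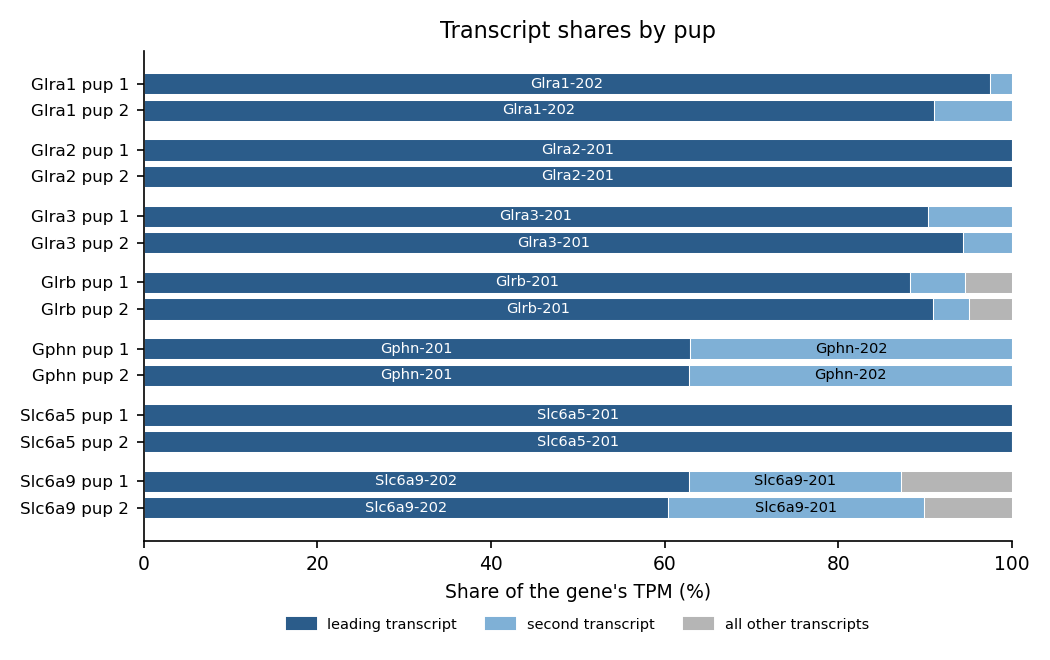
Share of each gene's TPM (percent) held by its leading transcript, its second transcript and all others, by pup; Glra4 is left out for its 7 and 0 counts. Glra2 and Slc6a5 show 1 transcript each, and Gphn is split 62.9% to 37.1% in pup 1 and 62.8% to 37.2% in pup 2.

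The pups differed little in these genes. After TMM scaling, the log2 ratio of pup 1 over pup 2 was 0.15 for Glra2, 0.19 for Slc6a5, 0.16 for Slc6a9 and 0.06 for Gphn, and -0.24 for Glrb, -0.14 for Glra3 and -0.03 for Glra1. Among the 7 members whose count averaged 100 or more, 0 reached a 2-fold difference. Of all 13545 genes at that depth 0.472% did, 0.0591% with pup 1 higher and 0.413% with pup 2 higher, so the members' count of 0 does not stand apart from the background. Over all these genes the median size of the log2 ratio was 0.11. Glrb, the member with the largest ratio, was exceeded in size by 16.8% of genes. With 1 library per pup the differences have no replicate check. Glra4, at 7 and 0 counts, is given no fold.

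The deposited TPM intervals of the pups lay apart for 5 of those 7 members, with Glra2, Gphn, Slc6a5 and Slc6a9 higher in pup 1 and Glrb higher in pup 2. They lay apart for 23.6% of all genes that average 100 counts or more, 15.9% with pup 1 higher and 7.72% with pup 2 higher. Among genes that average 1000 counts or more, as these 5 members do, the share was 33.6%. The intervals leave out the spread between animals and library preparations, which 1 library per pup does not show.

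**Figure D4:**
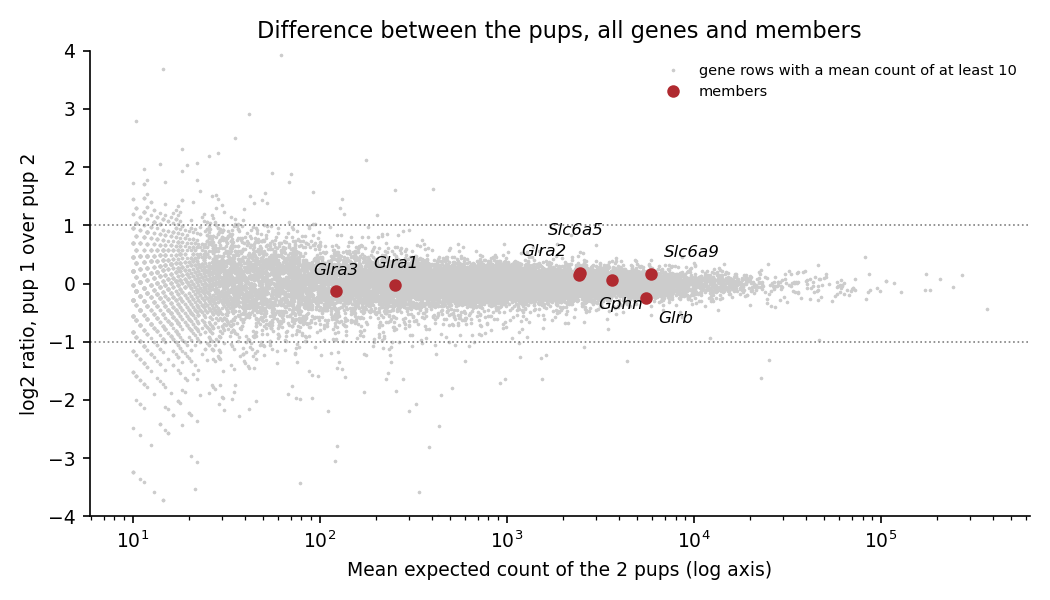
Log2 ratio of pup 1 over pup 2 after TMM scaling against the mean expected count (log axis), for 18105 genes in grey and the members in red; dotted lines mark 2-fold, 16 genes lie outside the axis, and Glra4 is below the count shown. The 7 members lie between -0.24 and 0.19.

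Cell types that could carry these RNAs were checked through marker lists. All 8 pan-neuronal and all 8 spinal cord Hox genes reached a TPM of 1 in both pups, while 0 of 8 forebrain genes did and 3 of them had 0 counts in both. All 8 astrocyte genes were detected, with a summed level of 1743 TPM in pup 1 and 1741 in pup 2, all 6 microglia genes with 207 and 216, and all 6 endothelial genes with 204 and 170. Of 8 retina genes, 1 was detected and 5 had 0 counts in both. Erythroid genes were detected for 5 of 9, 4 globins and Alas2, with a summed level of 3739 and 2887 TPM, while Klf1, Slc4a1 and Ermap were among those below 1 TPM. Skeletal muscle genes were detected for 5 of 8 (59.9 and 59.7 TPM summed) and liver genes for 1 of 6 (13.9 and 9.59).

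Some lists differed between the pups in the same direction as Glrb and Glra3. All 8 sensory ganglion genes were higher in pup 2, at a summed level of 103 TPM in pup 1 and 166 in pup 2. Most of that sum was Prph, which motor neurons also use, at 94.8 and 126 TPM, and the other 7 genes summed to 8.11 TPM in pup 1 and 40.1 in pup 2. The log2 ratio of pup 1 over pup 2 had a median of -2.79 over the 7 genes of the list that average 100 counts or more, and 6 of these were past 2-fold. All 8 oligodendrocyte genes were higher in pup 2 too, at 558 and 881 TPM. All 9 erythroid genes were higher in pup 1 by TPM, as were 7 of 8 pan-neuronal genes and all members except Glrb and Glra3. Among the Hox genes, whose use differs with level along the cord, Hoxc6 and Hoxc8 were past 2-fold higher in pup 2, at log2 ratios of -1.06 and -1.22, while Hoxc10 and Hoxd10 were at 0.84 and 0.66. The part of these cells, and of position along the cord, in the members' values was not tested.

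Genes that work with glycinergic synapses were listed to set the members beside them, and their detection is read against the 63.8% of protein-coding genes that reached a TPM of 1 in both pups. In the list of inhibitory transmitter synthesis, uptake and vesicle loading, 5 of 5 were detected, from the GABA transporter Slc6a11 at 225 ± 18.7 TPM and the GABA-synthesising enzyme Gad1 at 95.4 ± 9.73 to Slc32a1 at 16.3 ± 1.46 (SD, n = 2 for each). Slc32a1 loads both glycine and GABA into vesicles, and it was at a ratio of 0.971 and 1.02 to Slc6a5 by TPM but of 0.376 and 0.395 by count. Gad1 to Slc6a5 was 5.72 and 5.91 by TPM, and 2.42 and 2.51 by count. The level of Slc6a5 relative to the GABA genes therefore depends on the unit.

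Of the 14 matched partners of gephyrin at inhibitory synapses, 14 were detected, led by the dynein light chain Dynll1 at 1053 ± 55.3 TPM, the kinesin Kif5c at 121 ± 4.36 and Kif5b at 110 ± 2.33. The lowest was Insyn1, an inhibitory synapse protein, at 7.75 ± 0.46. Nlgn2, the adhesion protein of inhibitory synapses, was at 24.5 and 20.9 TPM, below Gphn in both pups (Nlgn2 was named after its values were seen). In the molybdenum cofactor list 4 of 7 were detected, a share near that background, Mocs2 at 130 ± 4.8, the sulfite oxidase gene Suox at 13.6 ± 1.97, Mocs3 at 9.49 ± 0.467 and Mocs1 at 4.53 ± 0.0424 (Mocs1 named after its values were seen). The TPM of Mocs1 was 4.56 and 4.5, but from 120 and 118 counts its log2 ratio of pup 1 over pup 2 was 0.57 after TMM scaling. The lowest of this list was Xdh at 0.20 ± 0.0283.

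Genes that make, break down or carry glycine were detected for 14 of 14. The highest were Phgdh, the first enzyme of serine synthesis, at 213 ± 18.4 TPM, and the glycine cleavage genes Dld at 113 ± 10.8 and Gcsh at 105 ± 2.05, and the lowest was the cytosolic serine to glycine enzyme Shmt1 at 4.07 ± 1.22. Of the other SLC6 transporters listed, 4 of 7 were also detected, led by Slc6a13 at 49.4 ± 8.79, Slc6a15 at 35.3 ± 0.672 and Slc6a17 at 16.0 ± 2.09. The noradrenaline transporter Slc6a2 was lowest at 0.035 ± 0.0354. Slc6a9 lay above all 7 of these transporters in both pups. Transcription factors of inhibitory and glycinergic interneurons were detected for 9 of 10, led by Pax8 at 26.0 ± 7.57, Lhx1 at 18.65 ± 1.61 and Sall3 at 17.6 ± 1.28, and Tal1 was lowest at 0.785 ± 0.0354. Of the 49 genes of these lists that average 100 counts or more, 0 reached a 2-fold difference between the pups, and list medians of the log2 ratio were between 0.08 and 0.14, against -0.0011 for all genes with that count.

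**Figure D5:**
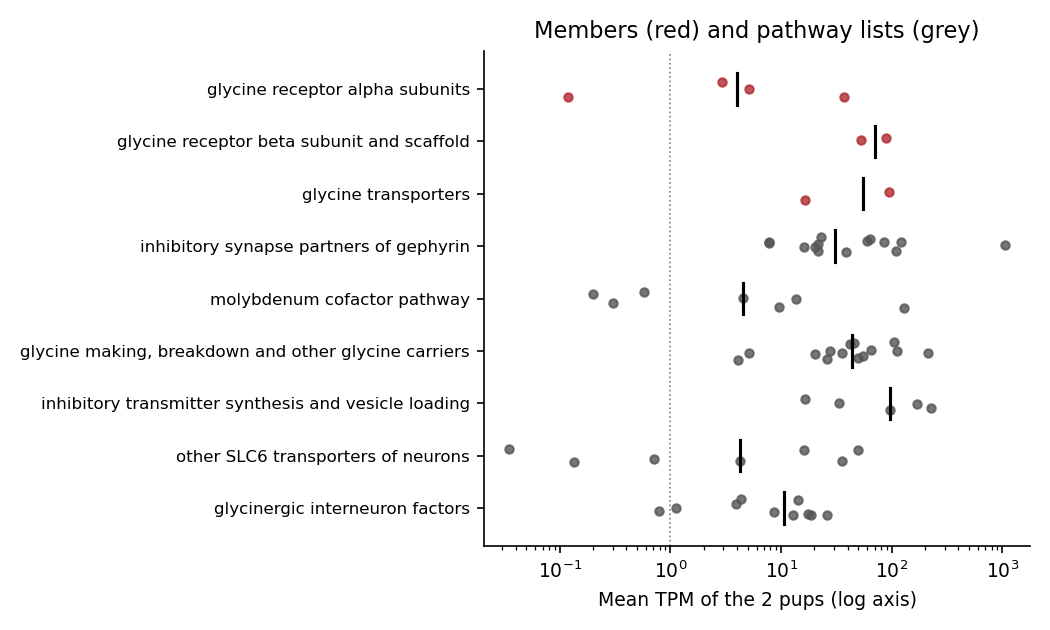
Mean TPM of the 2 pups (log axis) for the members (red) and for each gene of the pathway lists (grey), with a black bar at each list's median and a dotted line at a TPM of 1. Alpha subunits have a median of 4.04 TPM and transmitter synthesis and loading genes 95.4 TPM.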

How the data were processed

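Total RNA above 200 bases was sequenced from 2 neural tubes, with 10 ng of RNA per library per the labels. Per the deposited notes, the tables rest on the mm10 build and GENCODE M4, and per the file headers their columns are those RSEM writes. Neither the aligner, nor software versions, nor how strand was handled, is given in the sources used here. The authors deposited expected counts and TPM per gene and transcript, the percent of each gene's TPM held by each transcript, and, as a signal on the TPM or read scale, interval bounds and posterior standard deviations. No source used here states the level of those bounds.

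Gene rows were matched to GENCODE M21 on GRCm38 by gene ID without version, and 42462 of 43346 had a symbol. Rows that name no gene held 0.00131% and 0.00152% of counts and were left out. Effective length was the length minus 99 bases. Expected counts were rounded and scaled with TMM in edgeR 4.0.16 (R 4.3.3) over the 18105 genes that average 10 counts or more. The scaling factors were 1.006 and 0.9941. Log2 ratios used a prior count of 2, and genes past 2-fold were counted among those that average 100 counts or more. DESeq2 1.42.0 gave alternative size factors. The steps were tested on simulated data. Tables were joined in pandas 2.3.3 on Python 3.11.15, exact intervals came from scipy 1.17.1, and figures from matplotlib 3.10.9.

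The members and lists were chosen with earlier results of these data known. All members are named, and of each pathway list the 3 highest and the lowest by mean TPM, any gene past 2-fold, and transcripts holding at least 10%. Insyn2 matched no row, and values of some listed genes are not reported here. With 2 libraries, likeness of pattern between genes was not computed. Alternatives were other scalings, count filters, posterior means, counts in place of TPM and leaving out each pup.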

Additional observations from a re-analysis of the deposited data

How the results depend on the processing

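Of 75 checks of levels, ratios and shares under another unit or scaling, 44 stayed within 1 SD of the pups, 30 moved further and 1 changed direction. The last was Glra2 to Slc6a5, at 2.26 by TPM and 0.989 by expected counts, with 0.977 and 1 in the pups. The 28 checks of the log2 ratios between the pups under other scalings and prior counts stayed within counting error. Leaving out a pup is given as values only, since each of 2 pups lies within 1 SD of their mean by construction. With expected counts in place of TPM, the ratio of Glra2 to Glra1 was 9.69, against 7.22 as reported, Glra2 to Glra3 was 20.3, against 12.6, Slc6a9 to Slc6a5 was 2.41, against 5.72, and the share of Glra2 among alpha subunits was 86.6%, against 81.8%. Counts per base of the longest transcript gave 23.1 for Glra2 to Glra3 and, for Slc6a9 to Slc6a5, 4.90, while posterior mean TPM gave 5.92 for that last ratio. The value of 23.1 rests on Glra3-202, a minor transcript without a coding part, as the longest of Glra3. It has 3586 bases, against 1867 for the coding Glra3-201. Genes past 2-fold between the pups numbered 433 among genes averaging 10 counts or more and 1987 with no filter, against 64, and 59 with library totals in place of TMM, an alternative chosen after seeing the data. Leaving out either pup gave 6.74 to 7.70 for Glra2 to Glra1, 11.1 to 14.1 for Glra2 to Glra3, 1.75 to 2.23 for Glrb to the summed alpha subunits, 1.52 to 1.87 for Glrb to Gphn, 5.71 to 5.72 for Slc6a9 to Slc6a5, and 80.8% to 82.9% for the Glra2 share. TPM restricted to nuclear protein-coding genes raises every such gene by construction, with Glra4 at 0.149 TPM, against 0.12 as reported. This rescaling gave 7 of the 30 checks that moved further. No paired analysis was possible because there is 1 group. The spread rests on 2 pups of 1 litter and may be partly technical, and depth limits Glra4 and the minor transcripts of Glra1 and Slc6a9.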
